A study of Homo sapiens with 9 samples.

Results

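The 47 genes described here encode the machinery that prepares origins of DNA replication, opens them and copies DNA at the moving fork. They were named by symbol for those roles, and all 47 were found among the 60651 gene rows of the deposited count table. Libraries came from HCT116, a widely used cell line of human colorectal cancer, with 3 in each of 3 labelled groups. The series title gives the purpose as the impact of knocking down the dopamine transporter. The group shSLC6A3 DMSO has a short hairpin RNA against SLC6A3, the gene of that transporter, with the solvent DMSO. The group shCTRL VXN has a control hairpin and a treatment abbreviated VXN, which no label spells out. The group shCTRL DMSO has the control hairpin with DMSO. The genotype label of every library is WT. No label gives a dose, a time, the hairpin sequences, or whether the cells were 1 clone, a pool or separate cultures. The p-values below therefore describe the scatter among libraries, some or all of which may be technical.

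The labels and the authors' differential expression tables use different libraries under similar names. A DESeq2 rerun on the labelled groups gave the p-values of the authors' deposited table for shCTRL V against shCTRL D within 1e-06 for 0% of 38907 features, and those of the authors' deposited table for shDAT D against shCTRL D for 1.41%. A rerun on another set of columns gave 100% of the p-values in each of the authors' deposited tables. In that set the shCTRL V columns are the libraries labelled shSLC6A3 DMSO replicate 1, shCTRL VXN replicate 3 and shCTRL DMSO replicate 3. The shDAT D columns are shCTRL VXN replicate 1 and shCTRL DMSO replicates 1 and 2, and the shCTRL D columns are shSLC6A3 DMSO replicates 2 and 3 and shCTRL VXN replicate 2. Values of each trio are given below in these orders. DAT is read as the dopamine transporter, and no library's treatment is inferred from its counts. Comparisons by table columns and by label are kept apart. Both tables share the shCTRL D columns.

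Total counts were 30251364 to 60215785 per library. The lowest count of any of the 47 genes in any library was 101, for POLA2. SLC6A3 had 0 to 6 counts per library, too few to check the labels. The epithelial markers EPCAM and KRT8 stood at 326 to 399 CPM and 1781 to 1974 CPM (CPM, counts scaled to a library total of 1000000), while VIL1 and CEACAM5 had at most 6 and 2 counts. The epithelial markers CDH1 and KRT19 differed between the trios and are given below. Of 11 markers of leukocytes, endothelium and fibroblasts, LUM had no count in any library, 9 had at most 16 counts in a library, and COL1A1 stood at 18.7 to 46.4 CPM. Mitochondrial genes took 5.26% to 6.96% of the counts. Every pair of libraries differed by more than sampling noise, with a lowest chi-square per degree of freedom of 1.37, so none was counted as a duplicate. The closest pairs were shSLC6A3 DMSO replicate 1 with shCTRL DMSO replicate 3, at 1.37, and shSLC6A3 DMSO replicate 2 with replicate 3, at 1.53, and the next was at 3.34. Gene coordinates below are GENCODE v29 on GRCh38. Reads of overlapping genes could not be told apart by strand, since the TruSeq RNA v2 kit does not mark it. Of the 47 genes, 22 share exon bases with another gene there, and MCM2, GINS3, GINS4, POLA2, PRIM1, RFC5 and TIPIN share over 10% of theirs, so their values are less certain.

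Origins are prepared in G1 phase, when the origin recognition complex with CDC6 and CDT1 loads the MCM2 to MCM7 ring onto DNA, a step called licensing. In S phase the DBF4-CDC7 kinase and other factors bind CDC45 and GINS to the ring to form the active CMG helicase, and primase, polymerases, clamp, ligase and chromatin assembly factors follow the fork. Most of these genes are transcribed in late G1 and S phase and are low in cells that have left the cycle, and many are known targets of E2F transcription factors.

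All 47 genes were lower in the shCTRL V columns than in the shCTRL D columns, and most of them several-fold. In the authors' deposited table all 47 had an adjusted p below 0.05, where 22.7% of 24274 features with an adjusted p were lower by that rule and 44% passed in either direction. Among the 10256 features with a base mean (mean normalised count) of at least 500, a level that all 47 genes reached, 35.9% were lower in the authors' deposited table. At least 2-fold lower were 45 of the 47, against 7.14% of all features and 7.4% of those with that base mean. The median log2 fold change of the genes in the authors' deposited table was -2.24, within a range from -3.33 (MCM10) to -0.52 (RFC1), and the median of all features was -0.0016. In CPM, the mean of the shCTRL V columns was a median of 20.9% of the mean of the shCTRL D columns. Each shCTRL V column lay below each of the other 6 libraries for 47 of the 47 genes, a pattern that 28% of 20402 tested features showed.

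**Figure D1:**
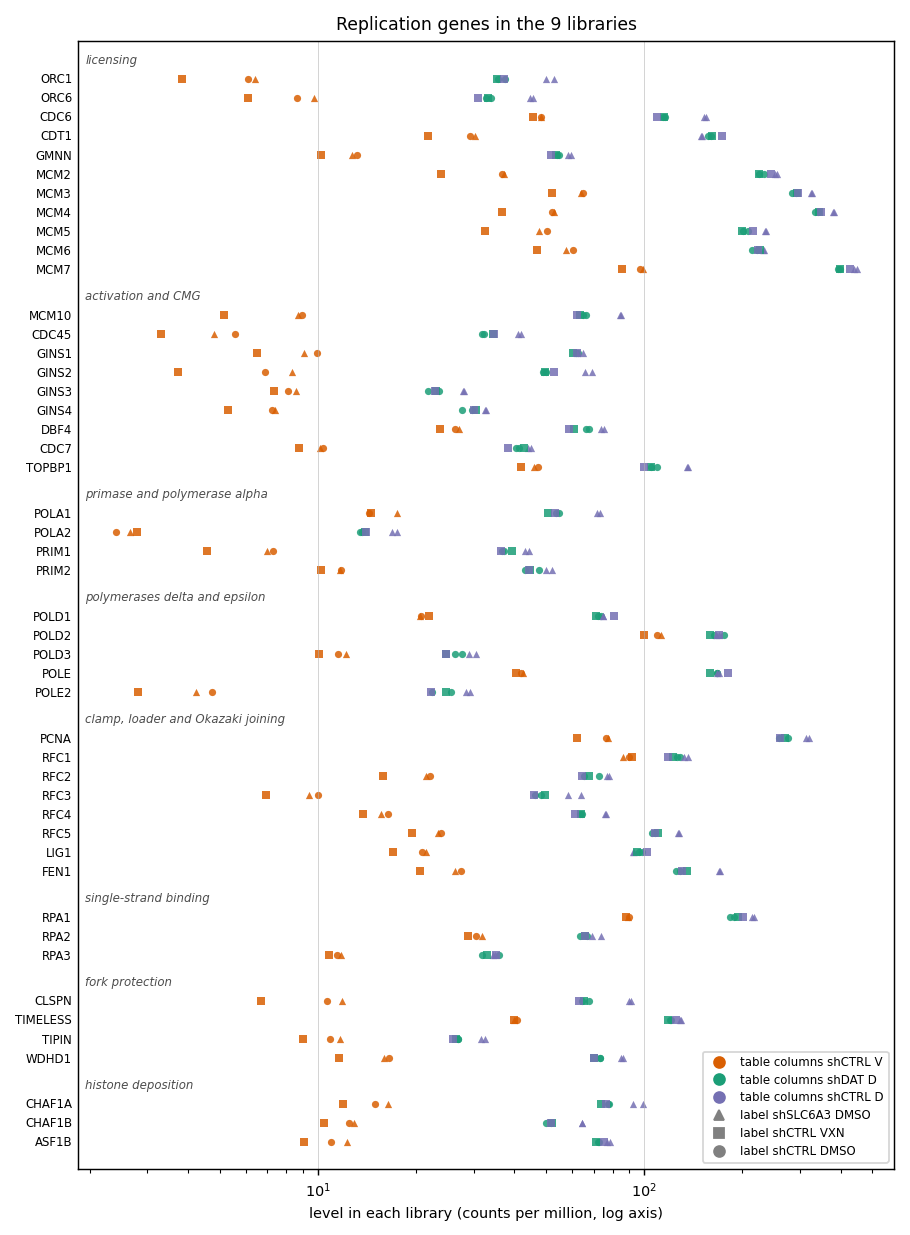
Level of each of the 47 replication genes in the 9 libraries, in CPM on a log axis, grouped by role. Colours give the trio of table columns and shapes the labelled group, and the 3 shCTRL V columns lie left of the other 6 libraries in every row.

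In bulk RNA, fewer cells that express a gene and less RNA per cell cannot be told apart. Markers of dividing cells moved with the genes: MKI67, TOP2A, CCNB1, BUB1, CENPF and BIRC5 summed to 279.5, 243.8 and 283.5 CPM in the shCTRL V columns. The sums were 1536, 1701 and 1689 CPM in the shDAT D columns and 1744, 1721 and 1677 CPM in the shCTRL D columns. All 6 were lower in the authors' deposited table for shCTRL V, with a median of -2.52. Their part in the result was not tested. The 8 epithelial markers summed to 4604 to 4785 CPM in the shCTRL V columns, 4168 to 4260 CPM in the shDAT D columns and 4195 to 4359 CPM in the shCTRL D columns. Of the 6 with an adjusted p, 2 were higher and 0 lower in shCTRL V. CDH1, which encodes the adhesion protein E-cadherin, had 207, 229 and 214 CPM in the shCTRL V columns, 102, 105 and 107 CPM in the shDAT D columns and 105, 106 and 105 CPM in the shCTRL D columns. All 3 shCTRL V columns were above the rest, at 1.04 (SE 0.07, adjusted p 8.33e-54) by the authors' deposited table. KRT19, a keratin of simple epithelia, had 1051, 1024 and 1041 CPM in the shCTRL V columns, 943, 879 and 899 CPM in the shDAT D columns and 783, 766 and 898 CPM in the shCTRL D columns. Again the shCTRL V columns were highest, by a smaller margin, at 0.35 (SE 0.06, adjusted p 1.07e-08) by the authors' deposited table. The part of these markers in the result was not tested.

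Among the 11 licensing genes the median log2 fold change in the authors' deposited table was -2.37. ORC1, the ATPase subunit of the origin recognition complex whose level follows the cell cycle (ENSG00000085840.13, chr1:52372829-52404459, minus strand), had 6.42, 3.82 and 6.13 CPM in the shCTRL V columns, 35.4, 37.6 and 35.7 CPM in the shDAT D columns and 50.1, 52.8 and 37.1 CPM in the shCTRL D columns. Its shCTRL V columns were far below all others, and shCTRL VXN replicate 2 was the lowest of the shCTRL D columns. The authors' deposited table gave -3.08 (SE 0.19, adjusted p 5.42e-60). CDC6, the loading factor that joins ORC (ENSG00000094804.12, chr17:40287633-40304657, plus strand), fell least of the 11, with 48.4, 45.7 and 48.4 CPM in the shCTRL V columns, 115, 114 and 116 CPM in the shDAT D columns and 155, 152 and 109 CPM in the shCTRL D columns. Its shCTRL V columns were within a narrow range and below all others, and the authors' deposited table gave -1.53 (SE 0.14, adjusted p 2e-28). CDT1, which brings the MCM ring to the origin, stood at -2.53 (SE 0.11) by the authors' deposited table, and GMNN, which encodes geminin, the inhibitor of CDT1, was at -2.22 (SE 0.11). ORC6, the smallest ORC subunit, stood at -2.28 (SE 0.19) by the authors' deposited table.

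The 6 subunits of the MCM ring assemble in equal numbers, while the fold changes of their mRNAs ran from -2.95 to -2.04. In the authors' deposited table the log2 fold changes were -2.95 (SE 0.13) for MCM4 and -2.93 (SE 0.14) for MCM2. They were -2.38 (SE 0.14) for MCM5, -2.37 (SE 0.10) for MCM3, -2.21 (SE 0.08) for MCM7 and -2.04 (SE 0.10) for MCM6 in the authors' deposited table. Differences between subunits were not tested. Levels per length, here and below, use the union of all annotated exons of a gene and not the length of its transcript. For the ring subunits that length ran from 3.65 kb for MCM3 to 7.34 kb for MCM5. Ranks between genes therefore depend on the annotation, and its part in them was not tested. Per kilobase of exon, the levels in the shCTRL V columns were 21.4 ± 1.69 CPM per kb for MCM7, 16.6 ± 1.96 for MCM3 and 13.4 ± 1.75 for MCM6 (SD, n = 3). MCM4, MCM2 and MCM5 followed at 6.79 ± 1.32, 6.65 ± 1.54 and 5.93 ± 1.30 CPM per kb, within their spread of each other. In the shCTRL D columns the levels were 100.05 ± 2.51 CPM per kb for MCM7, 86.6 ± 4.60 for MCM3, 55.6 ± 1.33 for MCM6, 53.1 ± 2.77 for MCM4, 51.3 ± 1.07 for MCM2 and 31.2 ± 1.57 for MCM5. There MCM4 differed from its neighbours MCM6 and MCM2 by less than its SD, while in the shCTRL V columns MCM6 stood above MCM4 by more than both SDs. MCM7, the highest of the 6 per length (ENSG00000166508.18, chr7:100092728-100101940, minus strand), had 99.2, 85.5 and 97.3 CPM in the shCTRL V columns, 399, 393 and 397 CPM in the shDAT D columns and 439, 450.3 and 428 CPM in the shCTRL D columns.

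The 9 genes of activation and the CMG helicase had a median of -2.24 in the authors' deposited table. MCM10, which is needed for the helicase to start unwinding (ENSG00000065328.17, chr10:13161554-13211104, plus strand), showed the lowest fold change of all 47, with 8.68, 5.15 and 8.95 CPM in the shCTRL V columns, 63.7, 66.4 and 65.1 CPM in the shDAT D columns and 84.9, 84.5 and 62.2 CPM in the shCTRL D columns. The shCTRL V values overlapped none of the others, and the authors' deposited table gave -3.33 (SE 0.19, adjusted p 8.55e-70). CDC45, the helicase cofactor, stood at -3.09 (SE 0.16) by the authors' deposited table. The 4 GINS subunits, which form 1 complex, were at -3.29 (SE 0.21) for GINS2, -2.88 (SE 0.13) for GINS1, -2.24 (SE 0.13) for GINS4 and -1.70 (SE 0.13) for GINS3 in the authors' deposited table. GINS2 also had the highest coefficient of variation among the shCTRL V columns, 37.3%, at 8.31, 3.72 and 6.88 CPM. DBF4, the regulatory subunit of the CDC7 kinase, changed least of this role, with 27.1, 23.7 and 26.4 CPM in the shCTRL V columns, 60.99, 66.3 and 67.6 CPM in the shDAT D columns and 75.4, 73.6 and 58.7 CPM in the shCTRL D columns. Its shCTRL V columns were again below the rest, and the authors' deposited table gave -1.41 (SE 0.12, adjusted p 3.09e-30). The kinase subunit CDC7 itself was at -2.11 (SE 0.11), and TOPBP1, which helps load CDC45, at -1.44 (SE 0.13) in the authors' deposited table.

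Primase and polymerase alpha, which lay down the RNA-DNA primer, had a median of -2.36 over 4 subunits in the authors' deposited table. PRIM1, the catalytic primase subunit, had 6.98, 4.58 and 7.26 CPM in the shCTRL V columns, 39.4, 36.6 and 37.1 CPM in the shDAT D columns and 44.3, 43.3 and 36.5 CPM in the shCTRL D columns. POLA1, the catalytic subunit of polymerase alpha (ENSG00000101868.13, chrX:24693919-24996986, plus strand), had 17.4, 14.5 and 14.3 CPM in the shCTRL V columns, 50.7, 54.8 and 53.5 CPM in the shDAT D columns and 73.3, 71.5 and 53.5 CPM in the shCTRL D columns. The shCTRL V columns were lowest for both genes, and for POLA1 shCTRL VXN replicate 2 lay within the shDAT D columns. The authors' deposited table gave -2.70 (SE 0.16, adjusted p 6.01e-65) for PRIM1 and -2.08 (SE 0.14, adjusted p 1.53e-47) for POLA1. POLA2, an accessory subunit and the lowest of the 47 per length in the shCTRL D columns at 2.81 ± 0.324 CPM per kb, was at -2.60 (SE 0.15), and PRIM2, the large primase subunit, at -2.11 (SE 0.11) in the authors' deposited table.

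The subunits of polymerases delta and epsilon, which copy most of the DNA, had fold changes from -2.74 to -0.63. The catalytic subunits POLD1 and POLE were at -1.85 (SE 0.06) and -2.04 (SE 0.05) in the authors' deposited table. POLE2, an accessory subunit of polymerase epsilon, had 4.24, 2.82 and 4.75 CPM in the shCTRL V columns, 24.7, 22.4 and 25.6 CPM in the shDAT D columns and 29.3, 28.4 and 22.2 CPM in the shCTRL D columns. POLD2, an accessory subunit of polymerase delta (ENSG00000106628.12, chr7:44114681-44124358, minus strand), had 113, 100.1 and 109.8 CPM in the shCTRL V columns, 159, 175 and 164 CPM in the shDAT D columns and 166, 169 and 169 CPM in the shCTRL D columns. The shCTRL V columns of both genes were below all other libraries, by a wide gap for POLE2 and a small one for POLD2. In the authors' deposited table POLE2 was at -2.74 (SE 0.18, adjusted p 1.22e-51) and POLD2 at -0.63 (SE 0.07, adjusted p 1.89e-18). POLD3, another accessory subunit of polymerase delta, stood at -1.29 (SE 0.12) by the authors' deposited table.

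The sliding clamp PCNA, the clamp loader and the enzymes that join Okazaki fragments had a median of -2.24 in the authors' deposited table. PCNA, which holds polymerases on DNA, had the highest level of the 47 per length, at 49.04 ± 5.91 CPM per kb in the shCTRL V columns, 183 ± 6.17 in the shDAT D columns and 203 ± 22.5 in the shCTRL D columns (SD, n = 3 each). RFC3, a small subunit of the clamp loader, had 9.41, 6.93 and 10.04 CPM in the shCTRL V columns, 49.7, 46.2 and 48.4 CPM in the shDAT D columns and 63.9, 58.4 and 45.8 CPM in the shCTRL D columns. RFC1, its large subunit (ENSG00000035928.16, chr4:39287456-39366375, minus strand), had 86.4, 91.9 and 89.7 CPM in the shCTRL V columns, 123, 126 and 128 CPM in the shDAT D columns and 132, 136 and 118 CPM in the shCTRL D columns. The shCTRL V columns of RFC1 stood just below the other libraries, the smallest change of the 47. The authors' deposited table gave -2.65 (SE 0.16, adjusted p 5.68e-61) for RFC3 and -0.52 (SE 0.09, adjusted p 1.06e-08) for RFC1. The remaining loader subunits were at -2.43 (SE 0.11) for RFC5, -2.21 (SE 0.12) for RFC4 and -1.87 (SE 0.14) for RFC2 in the authors' deposited table. FEN1, the flap nuclease, was at -2.65 (SE 0.14), LIG1, the ligase that seals the fragments, at -2.26 (SE 0.09) and PCNA at -2.03 (SE 0.12) in the authors' deposited table.

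RPA, the complex that coats single-stranded DNA at forks and in repair, had the smallest role median, -1.23 in the authors' deposited table. RPA3, its small subunit, had 11.8, 10.8 and 11.4 CPM in the shCTRL V columns, 33.1, 31.8 and 35.96 CPM in the shDAT D columns and 34.5, 34.8 and 35.1 CPM in the shCTRL D columns. RPA2, the middle subunit, had 31.9, 28.9 and 30.6 CPM in the shCTRL V columns, 65.8, 63.5 and 66.98 CPM in the shDAT D columns and 73.6, 69.4 and 65.9 CPM in the shCTRL D columns. RPA1, the large subunit (ENSG00000132383.12, chr17:1829702-1900082, plus strand), had 89.3, 87.7 and 89.98 CPM in the shCTRL V columns, 194, 183 and 188 CPM in the shDAT D columns and 216, 214 and 201 CPM in the shCTRL D columns. For each of the 3 subunits the shCTRL V columns were close to each other and below the other 6 libraries. The authors' deposited table gave -1.61 (SE 0.08, adjusted p 9.1e-81) for RPA3, -1.18 (SE 0.09, adjusted p 1.64e-42) for RPA2 and -1.23 (SE 0.07, adjusted p 1.63e-62) for RPA1.

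The 4 genes of fork protection and coupling had a median of -2.05 in the authors' deposited table. CLSPN, which encodes the checkpoint adaptor claspin (ENSG00000092853.14, chr1:35720218-35769967, minus strand), had 11.8, 6.70 and 10.7 CPM in the shCTRL V columns, 65.5, 67.7 and 64.4 CPM in the shDAT D columns and 89.8, 91.2 and 63.2 CPM in the shCTRL D columns. TIPIN, the partner of TIMELESS, had 11.7, 9.02 and 10.9 CPM in the shCTRL V columns, 26.5, 26.8 and 26.9 CPM in the shDAT D columns and 32.5, 31.5 and 25.96 CPM in the shCTRL D columns. Both genes were lowest in the shCTRL V columns, and shCTRL VXN replicate 2 was below every shDAT D column. The authors' deposited table gave -3.04 (SE 0.19, adjusted p 6.75e-55) for CLSPN and -1.49 (SE 0.13, adjusted p 4.05e-29) for TIPIN. WDHD1, which tethers polymerase alpha to the helicase, was at -2.44 (SE 0.14) and TIMELESS at -1.66 (SE 0.06) in the authors' deposited table.

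The 3 histone deposition genes had the lowest role median, -2.61 in the authors' deposited table. ASF1B, a chaperone of histones H3 and H4, had 12.3, 9.08 and 10.99 CPM in the shCTRL V columns, 71.1, 72.1 and 72.8 CPM in the shDAT D columns and 77.1, 78.5 and 75.5 CPM in the shCTRL D columns. CHAF1B, the middle subunit of chromatin assembly factor 1, had 12.9, 10.4 and 12.5 CPM in the shCTRL V columns, 52.2, 50.03 and 51.9 CPM in the shDAT D columns and 64.7, 64.6 and 51.7 CPM in the shCTRL D columns. The shCTRL V columns of both stood below all other libraries. The authors' deposited table gave -2.82 (SE 0.10, adjusted p 6.51e-164) for ASF1B, -2.33 (SE 0.13, adjusted p 1.57e-73) for CHAF1B and -2.61 (SE 0.14) for CHAF1A, the large subunit of the same factor.

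**Figure D2:**
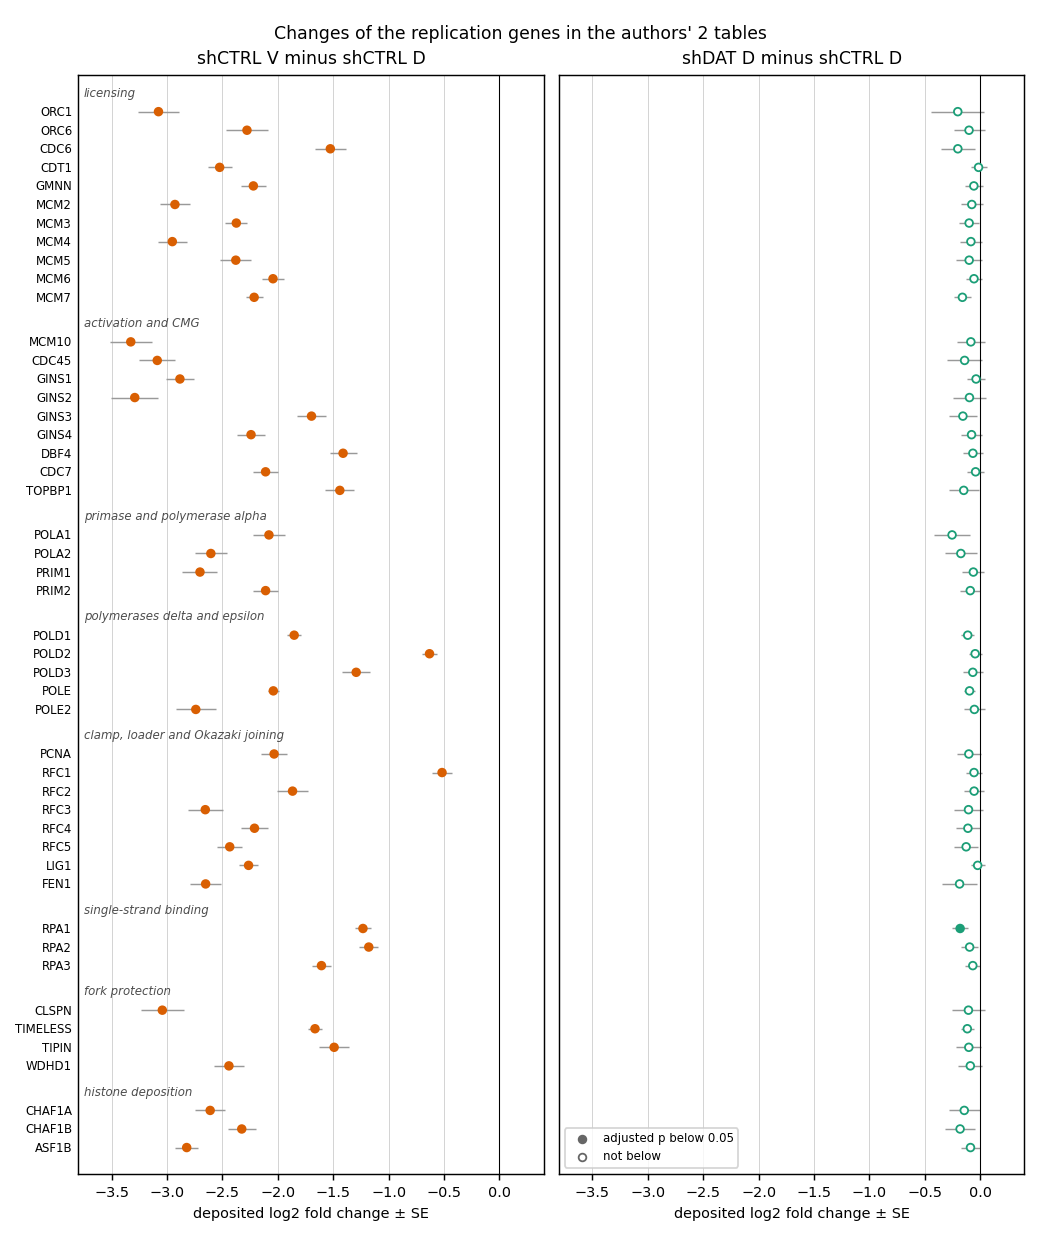
Log2 fold changes (point) and SE (bar) of the 47 replication genes from the authors' deposited tables, for shCTRL V minus shCTRL D on the left and shDAT D minus shCTRL D on the right, on the same scale. Filled points have an adjusted p below 0.05: all 47 on the left, from -3.33 to -0.52, and 1 on the right, RPA1. The SE bars are as deposited and are not those behind the p-values.

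The shCTRL V columns were not uniform. The library labelled shCTRL VXN replicate 3 was the lowest of the 3 for 43 of the 47 genes, where 41.5% of tested features showed that order, and the exceptions were POLA1, POLA2, POLD1 and RFC1. Its level was a median of 80.2% of the mean of the other shCTRL V columns, from 48.9% for GINS2 to 111% for POLA2. By role the median ran from 72.7% for activation and CMG genes and 73.3% for licensing genes to 92.9% for RPA. The same library had the lowest sum of dividing-cell markers, and the part of that in the result was not tested. All 47 genes were still lower without it, with a median of -2.15 in a DESeq2 rerun, beside -2.26 in the rerun with all libraries.

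The shCTRL V columns were also compared with the shDAT D columns, a contrast that leaves out the shared shCTRL D columns. The fit itself held all libraries, so the shCTRL D columns still entered its scaling and its estimate of the spread. By edgeR's quasi-likelihood test with Benjamini-Hochberg adjustment over all features, 47 of 47 genes were lower in the shCTRL V columns, beside 28.7% of 20402 features. The median log2 fold change was -2.05, from -3.04 to -0.43. By the same edgeR test MCM10 was at -3.04 (SE 0.20, adjusted p 5.7e-07), ORC1 at -2.67 (SE 0.19, adjusted p 1.25e-06), PCNA at -1.84 (SE 0.11, adjusted p 3.6e-07), RPA1 at -1.02 (SE 0.06, adjusted p 2.86e-07) and RFC1 at -0.43 (SE 0.07, adjusted p 0.00038).

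Fold changes between the shDAT D and the shCTRL D columns were small. In the authors' deposited table all 47 were below 0, with a median log2 fold change of -0.096 and a range from -0.25 (POLA1) to -0.01 (CDT1), beside a median of -0.041 over all features, and CDT1 and LIG1 turned to 0.02 and 0.01 in edgeR scaled by total counts. Deposited fold changes were closer to 0 than those of the rerun that gave the same p-values, whose median for the 47 genes was -0.20, so they appear to be shrunken. The deposited SE also differed from that of the rerun. In both of the authors' deposited tables, the SE printed beside a p-value is therefore not the one behind that p-value. The authors' deposited table called 1 of the 47 lower and 0 higher, where 5.62% of 10403 features with an adjusted p were lower. The called gene was RPA1, at -0.18 (SE 0.07, adjusted p 0.0495) by the authors' deposited table and -0.21 (SE 0.07) in the unshrunken rerun. Another 15 had an unadjusted p below 0.05, which makes 16 of the 47 genes, beside 24% of the features with an adjusted p that were lower at that level in the authors' deposited table. By edgeR's quasi-likelihood test with Benjamini-Hochberg adjustment on the same columns 0 of the 47 were called, with 11 lower at an unadjusted p below 0.05, beside 11.9% of 20402 features. The next smallest adjusted p-values in the authors' deposited table belonged to POLA1 at -0.25 (SE 0.16, adjusted p 0.0671), MCM7 at -0.16 (SE 0.08, adjusted p 0.0729), CDC6 at -0.20 (SE 0.16, adjusted p 0.0943) and FEN1 at -0.19 (SE 0.16, adjusted p 0.0989). FEN1 had 26.3, 20.6 and 27.4 CPM in the shCTRL V columns, 136, 125 and 129 CPM in the shDAT D columns and 169, 171 and 131 CPM in the shCTRL D columns. Its shDAT D columns were below shSLC6A3 DMSO replicates 2 and 3 and on both sides of shCTRL VXN replicate 2.

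The count of called genes in this comparison depended on 1 library of the shCTRL D columns. The library labelled shCTRL VXN replicate 2 was below shSLC6A3 DMSO replicates 2 and 3 for 41 of the 47 genes, where 37.6% of features showed that order, at a median of 83.8% of their mean. The exceptions were CDT1, LIG1, POLD1, POLD2, POLE and RPA3. The shDAT D columns stood at medians of 86.5%, 84.5% and 87.5% of the same mean, and shCTRL VXN replicate 2 lay within the range of the shDAT D columns for 16 of the 47 genes (44% of features). All shDAT D columns were below all shCTRL D columns for 12 of the 47 genes (9.88% of features). They were all below shSLC6A3 DMSO replicates 2 and 3 for 41 of the 47 (27.5% of features). Over 15161 genes, shCTRL VXN replicate 2 had a chi-square per degree of freedom of 14.7, 11 and 12.5 against the shDAT D columns, and of 97.5 and 91.6 against shSLC6A3 DMSO replicates 2 and 3, which stood at 1.53 against each other. Without shCTRL VXN replicate 2 a DESeq2 rerun called 35 of the 47 lower, beside 21.1% of 22454 features, with a median of -0.28. Without any other single library it called 0. In the rerun without shCTRL VXN replicate 2, DESeq2 gave -0.50 (SE 0.05, adjusted p 2.59e-24) for CDC6, -0.54 (SE 0.07, adjusted p 7.59e-12) for POLA1, -0.48 (SE 0.08, adjusted p 1.21e-07) for FEN1, -0.25 (SE 0.06, adjusted p 6.59e-05) for MCM7 and -0.28 (SE 0.05, adjusted p 2e-08) for RPA1. These values are not shrunken, while the deposited ones appear to be. With all libraries, the unshrunken rerun gave -0.33 for CDC6, -0.38 for POLA1, -0.33 for FEN1, -0.20 for MCM7 and -0.21 for RPA1. The 12 not called were CDT1, MCM2, MCM4, MCM5, MCM6, MCM10, CDC45, GINS1, GINS2, POLD2, LIG1 and RPA3, which include 4 of the 6 ring subunits, and CDT1 was at 0.0027 (SE 0.09, adjusted p 0.986) in that DESeq2 rerun. In that fit a control trio is left with a pair of libraries, so its spread rests on few libraries, and on the pair that differed so little from each other.

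**Figure D3:**
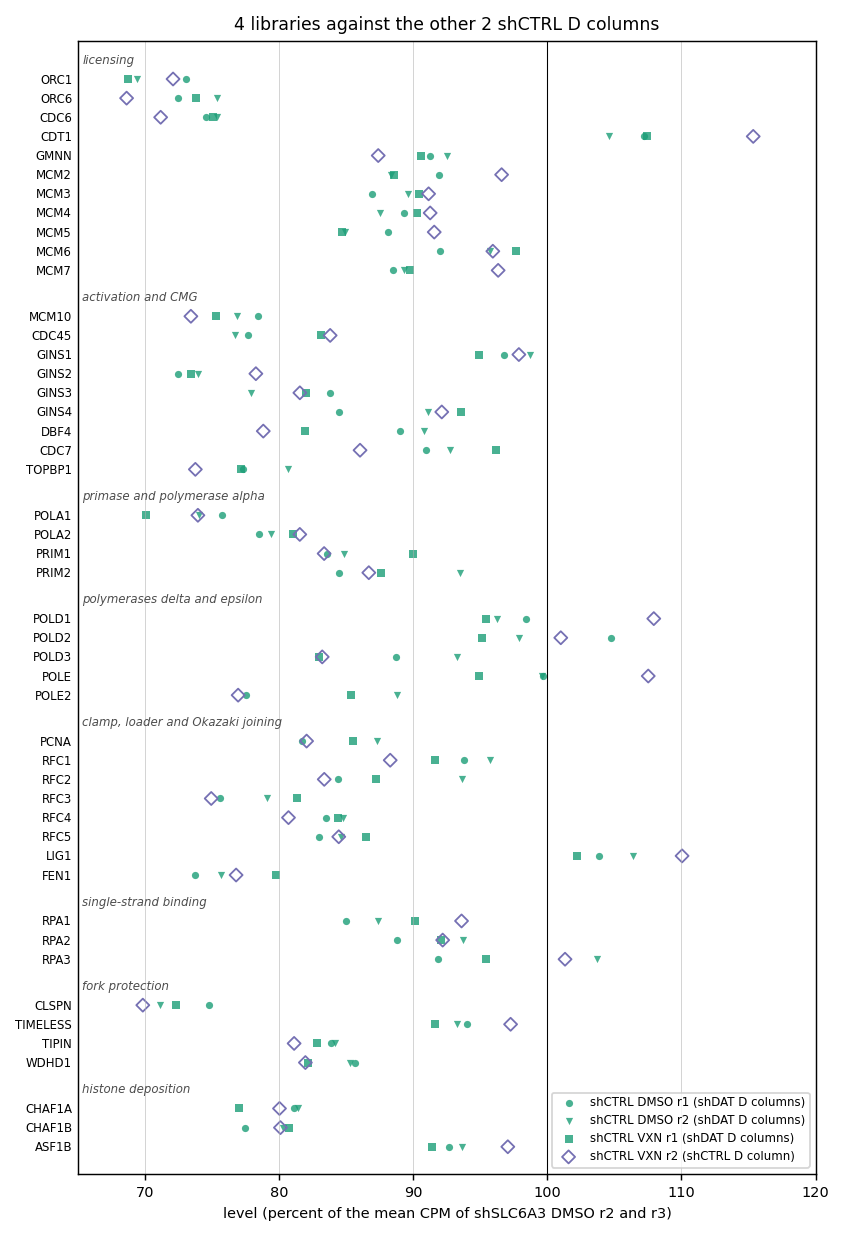
Level of each replication gene in the 3 shDAT D columns (filled) and in shCTRL VXN replicate 2 (open diamond), in percent of the mean CPM of the other shCTRL D columns, shSLC6A3 DMSO replicates 2 and 3. The open diamonds lie at a median of 83.8%, and CDT1 and LIG1 lie right of the line at the mean of those columns in all 4 libraries.

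By their names, both the labelled groups and the authors' shDAT D table address the question in the series title. Which of them names the treatments rightly is not known. Each labelled group holds 1 of the shCTRL V columns. For MCM10 the libraries had 8.68, 84.9 and 84.5 CPM in shSLC6A3 DMSO, 63.7, 62.2 and 5.15 CPM in shCTRL VXN and 66.4, 65.1 and 8.95 CPM in shCTRL DMSO. For PCNA they had 77.7, 321 and 313 CPM in shSLC6A3 DMSO, 271, 260.1 and 62.1 CPM in shCTRL VXN and 259, 277 and 76.5 CPM in shCTRL DMSO. For RFC1, with the smallest change above, they had 86.4, 132 and 136 CPM in shSLC6A3 DMSO, 123, 118 and 91.9 CPM in shCTRL VXN and 126, 128 and 89.7 CPM in shCTRL DMSO. In each group 1 library, the shCTRL V column, was low and the others high. The shCTRL V columns lay below all other libraries for all 47 genes, so no gene could separate the labelled groups. The overlap of the groups for all 47 therefore adds nothing about the labelled treatments. Of all features, 8.95% did not overlap between shSLC6A3 DMSO and shCTRL DMSO and 6.34% between shCTRL VXN and shCTRL DMSO.

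By edgeR's quasi-likelihood test with Benjamini-Hochberg adjustment, 0 of the 47 genes differed between shSLC6A3 DMSO and shCTRL DMSO, beside 0% of 20402 features. The median log2 fold change was 0.22, from -0.02 to 0.51, with standard errors of 0.21 to 1.10. Between shCTRL VXN and shCTRL DMSO 0 of the 47 differed by the same edgeR test, beside 0.0098% of features, with a median of -0.03, a range from -0.15 to 0.07 and standard errors of 0.21 to 1.10. In both comparisons 0 of the 47 had an unadjusted p below 0.05, beside 4.56% of features for shSLC6A3 DMSO and 1.88% for shCTRL VXN, and DESeq2 also called 0. With standard errors of this size, these values do not show that the labelled groups are alike. The sign of the median turned when 1 library was left out: it ran from -0.14 to 0.67 for shSLC6A3 DMSO and from -0.43 to 0.43 for shCTRL VXN.

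**Figure D4:**
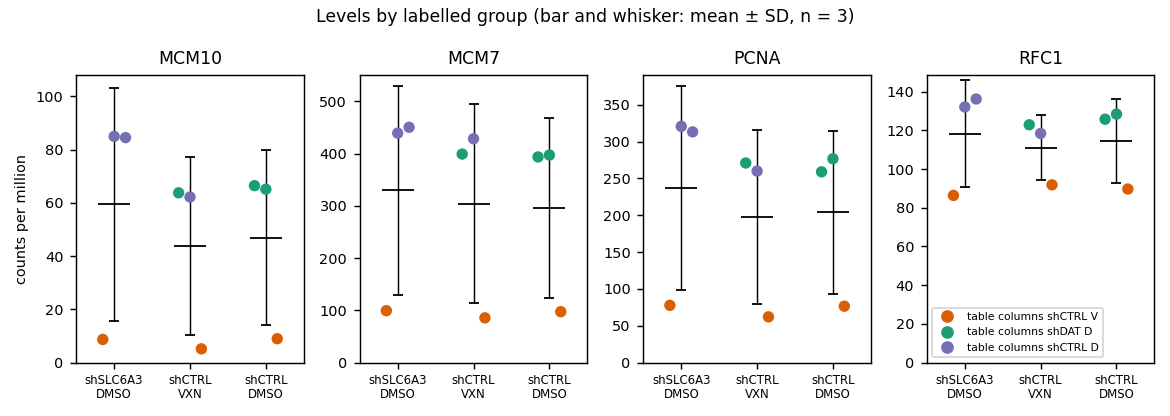
Levels of MCM10, MCM7, PCNA and RFC1 in CPM by labelled group, with each library as a point coloured by its trio of table columns and the mean ± SD (n = 3) as a bar. In each group 1 point, the shCTRL V column, lies below the other points.

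The promoters of these genes are shown because the genes fell together. RefSeq (GRCh38.p14) promoter windows of 250 bases before to 50 after the start were found for 41 of the 47. An E2F-type octamer (TTTCCCGC, TTTCGCGC, TTTGCCGC or TTTGGCGC, on either strand) was found in 21 of the 41, or 51.2% (95% exact binomial interval 35.1% to 67.1%), and in 3.99% of 27305 genes with a window. The motif TTTGAA, the core of the cell cycle homology region (CHR), was found on either strand in 2 of the 41, DBF4 and ASF1B, or 4.88% (95% exact binomial interval 0.596% to 16.5%), and in 18.2% of all genes. The choice of octamers was made with the known biology of these genes in view, and a match is a description of letters, not of a bound site. The 27305 genes include those not expressed here and were not matched to the 41 for base composition. The part of base composition in either share was not tested. The 21 genes with an octamer had a median of -2.22 in the authors' deposited table for shCTRL V, and the 20 without had -2.30.

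Windows of 250 bases upstream of the start are given for 6 genes, chosen after their matches and values were seen: 4 with an octamer, then the genes with the largest and the smallest change, which have none. They are MCM6 at chr2:135876444-135876693 (minus strand), MCM3 at chr6:52284743-52284992 (minus strand), RFC3 at chr13:33817899-33818148 (plus strand), GINS2 at chr16:85688955-85689204 (minus strand), MCM10 at chr10:13161308-13161557 (plus strand) and RFC1 at chr4:39366363-39366612 (minus strand). Capitals mark the octamers that lie wholly in the stretch, and each run reads 5′ to 3′ along the gene's strand.
MCM6: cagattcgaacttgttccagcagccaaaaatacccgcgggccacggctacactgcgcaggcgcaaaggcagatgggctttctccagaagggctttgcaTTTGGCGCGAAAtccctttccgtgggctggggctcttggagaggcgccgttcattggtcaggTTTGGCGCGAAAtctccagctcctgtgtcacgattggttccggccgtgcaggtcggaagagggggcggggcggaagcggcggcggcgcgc
MCM3: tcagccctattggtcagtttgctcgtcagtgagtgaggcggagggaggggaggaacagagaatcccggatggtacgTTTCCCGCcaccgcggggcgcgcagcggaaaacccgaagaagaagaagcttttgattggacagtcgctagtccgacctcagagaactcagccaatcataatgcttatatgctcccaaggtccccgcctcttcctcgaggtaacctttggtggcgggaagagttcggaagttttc
RFC3: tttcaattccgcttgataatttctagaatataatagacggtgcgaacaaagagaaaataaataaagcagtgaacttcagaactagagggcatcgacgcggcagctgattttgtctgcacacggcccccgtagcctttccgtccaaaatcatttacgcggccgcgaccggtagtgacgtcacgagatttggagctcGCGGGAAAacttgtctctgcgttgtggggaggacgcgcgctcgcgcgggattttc
GINS2: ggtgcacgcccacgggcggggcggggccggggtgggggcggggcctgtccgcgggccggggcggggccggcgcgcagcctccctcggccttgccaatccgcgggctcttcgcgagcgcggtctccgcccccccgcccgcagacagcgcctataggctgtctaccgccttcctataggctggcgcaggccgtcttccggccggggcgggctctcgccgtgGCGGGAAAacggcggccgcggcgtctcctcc
MCM10: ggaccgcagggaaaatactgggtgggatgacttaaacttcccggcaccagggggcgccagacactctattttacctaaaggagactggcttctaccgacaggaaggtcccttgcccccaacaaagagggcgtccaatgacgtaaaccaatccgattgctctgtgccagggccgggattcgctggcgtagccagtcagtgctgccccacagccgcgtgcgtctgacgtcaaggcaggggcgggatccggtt
RFC1: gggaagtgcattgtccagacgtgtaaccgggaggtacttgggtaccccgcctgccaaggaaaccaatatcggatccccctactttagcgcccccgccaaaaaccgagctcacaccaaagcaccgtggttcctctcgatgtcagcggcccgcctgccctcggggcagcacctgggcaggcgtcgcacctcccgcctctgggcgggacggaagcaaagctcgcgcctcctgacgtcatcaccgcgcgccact

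MCM6 holds 4 matches as 2 overlapping pairs, each of which reads TTTGGCGC on the gene's strand and TTTCGCGC on the other. The matches of MCM3, RFC3 and GINS2 read TTTCCCGC, on the gene's strand in MCM3 and on the opposite strand in RFC3 and GINS2. MCM10 and RFC1, at the opposite ends of the range of fold changes, have no octamer in their windows. MCM3 has another match across its start, which begins at base -4, ends beyond the stretch shown and is not in capitals.

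Other replication genes moved less evenly. Of 32 further genes of origins and forks, the authors' deposited table for shCTRL V had 26 lower and 1 higher, with a median of -1.14, beside the 22.7% of all features that were lower. The lowest were DSCC1, a subunit of the alternative clamp loader that acts in sister chromatid cohesion, at -3.34 (SE 0.17), PCLAF, which binds PCNA, at -3.05 (SE 0.13), ATAD5, which unloads PCNA, at -2.62 (SE 0.17) and the helicase MCM8 at -2.39 (SE 0.14) in the authors' deposited table. The highest was POLD4, the smallest subunit of polymerase delta, at 0.93 (SE 0.11, adjusted p 2.93e-17) in the authors' deposited table. POLD4 had 20.1, 20.1 and 20.4 CPM in the shCTRL V columns, 12.3, 11.2 and 10.5 CPM in the shDAT D columns and 10.1, 9.17 and 12.4 CPM in the shCTRL D columns. Its shCTRL V columns were the highest of the 9 libraries, while the other polymerase delta subunits were lowest there. ASF1A, MCM9 and ORC4 followed at 0.21 (SE 0.15), 0.14 (SE 0.12) and 0.09 (SE 0.08) in the authors' deposited table and did not pass the test, nor did ORC2 and POLE4. For shDAT D, the authors' deposited table had 3 of 29 genes with an adjusted p lower, RECQL4 at -0.22 (SE 0.09, adjusted p 0.0379), MCMBP at -0.24 (SE 0.12, adjusted p 0.0499) and MMS22L at -0.27 (SE 0.14, adjusted p 0.04996), named after their values were seen, beside the 5.62% of all features that were lower.

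Among 18 regulators of these genes, the authors' deposited table for shCTRL V had 12 lower and 2 higher, beside the same 22.7% of all features lower. E2F1, an activator of S phase genes, was at -2.72 (SE 0.11), and the 2 higher genes were the inhibitors of cyclin-dependent kinases CDKN1A at 1.49 (SE 0.09) and CDKN1B at 0.29 (SE 0.12) in the authors' deposited table. CDKN1A had 506, 571 and 513 CPM in the shCTRL V columns, 189.97, 210.1 and 196 CPM in the shDAT D columns and 170.04, 173 and 222 CPM in the shCTRL D columns. Its shCTRL V columns were the highest of the 9 libraries, and shCTRL VXN replicate 2 was the highest of the shCTRL D columns. For shDAT D, the authors' deposited table had 4 of the regulators lower, beside 5.62% of all features. They were E2F4, E2F7 and TFDP1, named after their values were seen, and cyclin E1 (CCNE1), at -0.33 (SE 0.14, adjusted p 0.0383). CCNE1 had 28.9, 32.4 and 27.2 CPM in the shCTRL V columns, 40.1, 38.5 and 38.9 CPM in the shDAT D columns and 53.5, 55.1 and 41.97 CPM in the shCTRL D columns, so that shCTRL VXN replicate 2 stood nearer to the shDAT D columns than to the other shCTRL D columns.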

How the data were processed

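RNA of 9 HCT116 libraries was extracted and built with the TruSeq RNA v2 kit, per the labels' protocols. The submitters' processing notes name fastp 0.20.1, FastQC 0.11.9, STAR, DESeq2 1.34.0 and GRCh38. The counting program and annotation were not given in the sources used here. Counts were deposited by the authors without normalisation, per gene (60651 rows) and per repeat (1181 rows). The log2 fold changes and their SE, the p-values and adjusted p-values, and the base mean (a signal of mean normalised counts) were computed by the authors with DESeq2, per the file headers.

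From the counts, CPM used each library's total count. edgeR 4.0.16 (R 4.3.3; quasi-likelihood, TMM, filterByExpr, 20402 features, Benjamini-Hochberg over all of them, threshold 0.05) fitted all 9 libraries, by label and by table columns. The SE given with edgeR values is not an output of that test. It was computed as the absolute log2 fold change divided by the square root of the F statistic. DESeq2 1.42.0 was the rerun and alternative tool. The fits were tested on simulated data whose spread was taken from the trios of table columns. That spread was also used for the labelled groups, so the simulation does not show what the labelled comparisons could detect. Coordinates and exon lengths come from GENCODE v29 on GRCh38, and promoters from RefSeq on GRCh38.p14.

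The 47 genes, the further lists and the table columns were chosen with earlier results of these data known. Values in every library were given for the members with the largest and smallest change of each role in the shCTRL V table, and for the 5 with the smallest adjusted p in the shDAT D table. For the further replication genes the rule named the 4 highest and 4 lowest, and for the regulators up to 4. ORC2, POLE4, RECQL4, MCMBP, MMS22L, E2F4, E2F7 and TFDP1, and the markers CDH1 and KRT19, were named after their values were seen. Motif shares were set beside those of all promoters, without a test. The title of the third VXN library reads VNN, and its treatment label VXN was used. Alternatives covered the normalisation, the filter, the tool, the libraries fitted, the replicate number as a block, a fold threshold and the promoter window.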

Additional observations from a re-analysis of the deposited data

How the results depend on the processing

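The 47 genes stayed lower, 47 of 47, in shCTRL V against shCTRL D and in shCTRL V against shDAT D under every normalisation, filter, tool and left-out library run, and the 2-fold rule left 45 in the first. For shDAT D against shCTRL D the deposited table called 1 of 47. The count was 0 by edgeR's quasi-likelihood test with TMM, with RLE factors, with total counts and with no filter, and 0 with the 2-fold rule. Lower at an unadjusted p below 0.05 were 11, 11, 9 and 21 of the 47 in these edgeR fits, beside 11.9%, 13.5%, 10.3% and 7.6% of all features. Features called in all were 689 in the deposited table, 0 in the edgeR fit and 690 in edgeR with no filter, and 7830, 21.1% of features lower, in DESeq2 without shCTRL VXN replicate 2. Leaving out 1 library gave between 0 and 35 called genes, with 35 only without shCTRL VXN replicate 2, where edgeR, added after the data were seen, called 30, beside 21.5% of 20845 features lower and 8970 called in all. Where a shDAT D column was left out, DESeq2 gave an adjusted p to 17 to 23 of the 47. RPA1 missed the threshold in edgeR with TMM (-0.19) and with total counts (-0.16). With total counts the log2 fold change of CDT1 turned to 0.0178 and that of LIG1 to 0.0114, and CDT1 ran from -0.0509 to 0.0027 over left-out libraries; the cause was not tested. Other scalings moved the median of all features by at most 0.06. Between labelled groups every alternative called 0 of the 47; of all features, edgeR called 2 for shCTRL VXN, 0 with no filter, and DESeq2 18. The deviations of same-numbered libraries correlated from -0.69 to 0.89, and those of differently numbered libraries from -0.813 to 0.775. Correlations were negative between a shCTRL V column and a library of another trio, and positive elsewhere. They therefore cannot decide whether replicate numbers pair the libraries. With the replicate number as a block 0 of the 47 were called, and the medians were 0.55 for shSLC6A3 DMSO and -0.04 for shCTRL VXN. In the 250 bases before the start alone, 34.1% of the promoters held an E2F-type octamer, beside 3.4% of all genes, and 2.44% the CHR core, beside 16.1%. Base means of the 47 genes were 501 to 14348 counts, and an effect of depth was not tested.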
